A study of Mus musculus with 9 samples.

Results

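The expression of transcription factors that mark regions of the hypothalamus was examined in laser-captured mediobasal hypothalamus of 9 mice. The genes were chosen by name, with earlier results of these data known, and were Nkx2-1, Tbx3, Isl1, Otp, Six3, Six6, Hmx2, Hmx3 and Dlx1. Of these 9 genes, 8 had a row among the 13588 entries of the expression table. Hmx2 had no row, so its expression was not analysed here. All 8 genes with a row passed the filter on low values and were tested together with 13506 entries in all.

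Regional transcription factors are set up in the embryo in partly overlapping domains, and many stay on in the adult neurons that descend from them. Nkx2-1 specifies the ventral hypothalamus, Six3 and Six6 belong to the program of the anterior forebrain and eye, and Tbx3 and Isl1 are known from arcuate neurons, including the Pomc neurons. Otp is needed for several neuroendocrine cell groups, Hmx2 and Hmx3 for a set of hypothalamic neurons that includes those making growth hormone–releasing hormone, and Dlx1 belongs to the program of GABA neurons. Their RNA levels are given here as a description of the regional identity of the captured tissue.

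The samples came from adult male C57/BL6 mice (C57BL/6J in the methods of the study), all with a floxed Snord116 allele (B6(Cg)-Snord116tm1Uta/J, homozygous in every group), whose mediobasal hypothalamus had been injected with AAV-Cre (6 mice) or AAV-GFP (3 mice) 10 weeks earlier. The AAV-Cre vector carried the CAG promoter and the AAV-GFP vector the CMV promoter, so neither was restricted to a cell type, and the captured region of AAV-Cre mice was chosen by Cre staining of a neighboring section. Each library came from a different mouse. AAV-Cre mice were labelled obese (3 mice) or nonobese (3 mice), but the titles of these samples state the opposite, and the weight label is used here for both subsets. Values are given as signal, the number of reads of a gene divided by a library size scaled with edgeR's TMM method, scaled as in CPM. Libraries held between 3929672 and 5766994 reads, and the floor of 3 reads corresponded to a signal of 0.525 to 0.786, which covers counting error only.

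The vector entries matched the treatment labels. Cre had 1011 to 37704 reads in the AAV-Cre mice and 0 to 5 reads in the AAV-GFP mice, whereas Gfp had 317 to 350 reads in the AAV-GFP mice and 0 in the others. Of 18 identifiers for Snord116 copies and their host gene Snhg14, 0 had a row, so the deletion itself could not be read from the table. Both AAV-Cre libraries labelled obese with replicate numbers 1 and 3 stood apart from the rest. Their Cre signal was 1330 and 235, against 4644 to 8557 in the other AAV-Cre mice. Their summed signal of 6 MHC genes was 4220 and 4482, against 98.2 to 211 in the other 7 libraries. Igkc, an antibody light chain gene made by plasma cells, reached 2074 and 4033 in these libraries, against 0 to 52.2 elsewhere. Fold changes of the members that rest on replicates 1 and 3 labelled obese are therefore also given without them.

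The 250 bases upstream of the transcription start are shown for Six3 and Nkx2-1, the pair of members that varied together most closely, and for Six6, the nearest relative of Six3 among the members. Sequences are from RefSeq (GRCm38.p6) and are written 5′ to 3′ on the strand of the gene, with the motif CCAAT in capitals on either strand (ATTGG where it lies on the other strand).
Six3 (chr17:85620584-85620833, plus strand): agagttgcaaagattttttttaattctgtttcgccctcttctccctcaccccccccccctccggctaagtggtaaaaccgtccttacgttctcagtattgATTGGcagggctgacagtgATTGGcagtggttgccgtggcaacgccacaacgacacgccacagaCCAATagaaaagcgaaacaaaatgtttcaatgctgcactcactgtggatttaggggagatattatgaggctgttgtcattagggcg
Six6 (chr12:72939632-72939881, plus strand): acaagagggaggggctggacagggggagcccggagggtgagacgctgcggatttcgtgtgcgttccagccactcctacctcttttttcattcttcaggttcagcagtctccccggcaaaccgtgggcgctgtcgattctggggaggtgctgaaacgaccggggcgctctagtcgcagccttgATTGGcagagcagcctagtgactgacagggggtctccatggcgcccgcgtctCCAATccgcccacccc
Nkx2-1 (chr12:56536909-56537158, minus strand): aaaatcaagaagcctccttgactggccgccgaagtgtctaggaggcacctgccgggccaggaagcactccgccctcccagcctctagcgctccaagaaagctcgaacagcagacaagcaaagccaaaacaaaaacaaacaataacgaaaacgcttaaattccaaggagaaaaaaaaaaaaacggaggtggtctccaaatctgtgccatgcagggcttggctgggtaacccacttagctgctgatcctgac
The Six3 window held 3 matches, the Six6 window 2 and the Nkx2-1 window 0. At least 1 match was present in 33.8% of the windows of the same length from 32851 promoters, so the motif is common. The GC content was 48.8% for Six3, 62.8% for Six6 and 50.8% for Nkx2-1, around a median of 52.4% over all these windows. RefSeq promoters were matched for 7 of the 8 measured members, and Tbx3 was not among them.

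All 8 measured members were detected in the captured tissue, 7 of them above the floor in each of the 9 libraries. Hmx3 was the exception, with 1 read in AAV-Cre replicate 2 labelled nonobese. In signal per kilobase of annotated exon (GENCODE M21), the scale on which genes can be compared, Isl1 had the highest mean (13.0 ± 4.49, SD over 9 libraries), followed by Six3 (9.09 ± 6.11), Nkx2-1 (7.48 ± 3.43) and Tbx3 (5.44 ± 1.78). Hmx3 (4.70 ± 3.60), Otp (4.57 ± 2.46) and Dlx1 (4.49 ± 2.18) lay close together, and Six6 was lowest (2.57 ± 2.25). Neighbors in this order did not separate in every mouse. Isl1 exceeded Six3 in 6 of 9 libraries, Six3 exceeded Nkx2-1 in 6, Nkx2-1 exceeded Tbx3 in 5, Tbx3 exceeded Hmx3 in 6, Hmx3 exceeded Otp in 3, Otp exceeded Dlx1 in 6 and Dlx1 exceeded Six6 in 7. Six3 ranked anywhere from 1 to 7 among the 8 genes, and Hmx3 from 1 to 8. Among 13368 entries with a known exon length, the mean level of Isl1 exceeded that of 78.5% and the mean level of Six6 that of 28.1%.

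**Figure D1:**
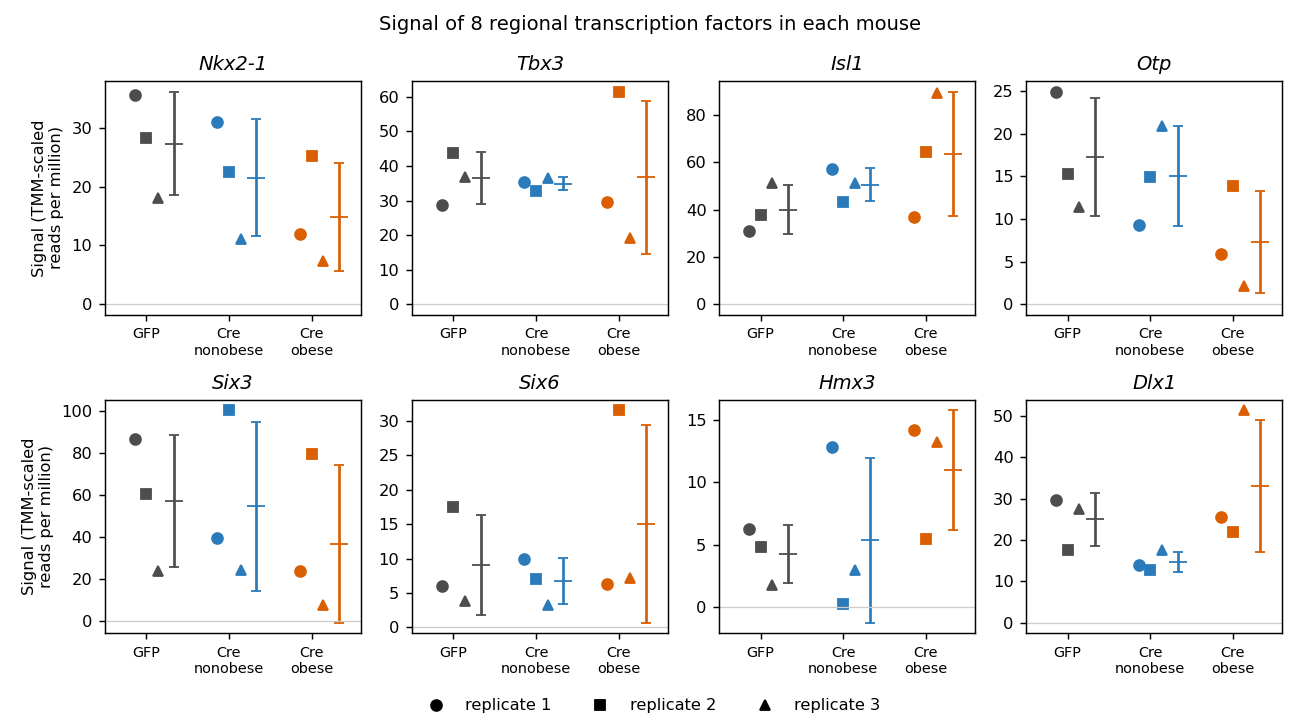
Signal (TMM-scaled reads, as in CPM) of each of 8 regional transcription factors, with a point for each mouse, shaped by replicate number, and a bar for the mean ± SD of each group of 3. Six3 spans 7.43 to 101 over the libraries, and the groups overlap for every gene except Dlx1, for which the nonobese-labelled mice (12.8 to 17.5) lie under those of both other groups.

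Nkx2-1 (ENSMUSG00000001496, chromosome 12 from 56531958 to 56536908 of GRCm38, minus strand, 3 exon blocks) had a signal of 35.7, 28.3 and 18.1 in AAV-GFP replicates 1, 2 and 3. It was 31.0, 22.5 and 11.1 in the nonobese-labelled mice and 11.9, 25.2 and 7.43 in obese-labelled mice. Each group held a mouse above 25 and a mouse below 20, and the groups overlapped. The mean was 27.4 ± 8.84 (SD, n = 3) with AAV-GFP, 21.5 ± 9.98 (SD, n = 3) in nonobese-labelled mice and 14.9 ± 9.23 (SD, n = 3) in obese-labelled mice. The log2 fold change (log2 FC, on the log2(signal + 1) scale, which understates changes of low genes) was −0.95 (standard error 0.50, 95% CI −1.99 to 0.09) in obese-labelled mice and −0.39 (standard error 0.50) in nonobese-labelled mice, against AAV-GFP. Neither passed an FDR of 0.1 in limma (FDR = 0.551 and 0.999). Without replicates 1 and 3 labelled obese, the first of these was −0.06 (standard error 0.59). In these bulk samples, fewer cells of a type and less RNA per cell cannot be told apart, for this and every other gene. Of its close relatives, Nkx2-4 had a signal of 6.02 to 28.1 and Nkx2-2 of 1.94 to 20.2 over the 9 libraries. The ratio of Nkx2-1 to Nkx2-4 signal ran from 3.74 in replicate 2 labelled nonobese to 0.294 in replicate 3 labelled obese.

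Six3 (ENSMUSG00000038805, chromosome 17 from 85613608 to 85629302, plus strand, 4 exon blocks) differed more between mice than any other member in absolute terms. Its signal was 86.8, 60.5 and 23.9 in AAV-GFP replicates 1 to 3, 39.4, 101 and 24.1 in nonobese-labelled mice, and 23.6, 79.4 and 7.43 in obese-labelled mice. Every group thus held a mouse at 79.4 or more and a mouse at 24.1 or less. The group means were 57.1 ± 31.6, 54.7 ± 40.5 and 36.8 ± 37.8 in the same order (SD, n = 3 each). Against AAV-GFP its log2 FC was −1.0 (standard error 0.58, 95% CI −2.20 to 0.20, limma FDR = 0.592) in obese-labelled mice and −0.13 (standard error 0.58, limma FDR = 0.999) in nonobese-labelled mice. A single mouse decided this result. Without replicate 2 labelled obese, the log2 FC was −1.83 (standard error 0.52) and passed the threshold with a limma FDR of 0.0453, whereas over all fits that left out a mouse the FDR ran from 0.0453 to 0.944. Without replicates 1 and 3 labelled obese instead, it was 0.65 (standard error 0.58, limma FDR = 0.728).

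The reads of Six3 may include some of an antisense transcript. Six3os1 shares 106 exon bases with Six3 on the opposite strand, and Gm28528 shares 168 and had no row. The library kit keeps strand, but the strand setting of the counting is not given in the sources used here. Six3os1 had a signal of 4.90 to 28.0, with its highest value in replicate 2 labelled nonobese, the mouse that was also highest for Six3. The Six3 to Six3os1 ratio ranged from 0.914 in replicate 3 labelled obese to 8.09 in AAV-GFP replicate 1. Six2, the neighboring gene 54974 bases away on chromosome 17, had a signal of 32.2 to 83.3 and did not follow Six3, since the Six3 to Six2 ratio ran from 0.0936 to 1.91.

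Six6 (ENSMUSG00000021099, chromosome 12 from 72939892 to 72944899, plus strand), a related factor of eye and hypothalamic development, was the lowest member per kilobase. Its signal was 5.98, 17.4 and 3.88 in AAV-GFP mice, 9.97, 7.07 and 3.20 in nonobese-labelled mice, and 6.30, 31.5 and 7.20 in obese-labelled mice. The replicates numbered 2 of the AAV-GFP and obese groups held the highest values, and the remaining 7 libraries lay between 3.20 and 9.97. The log2 FC relative to AAV-GFP was 0.54 (standard error 0.72, limma FDR = 0.855) in obese-labelled mice and −0.25 (standard error 0.72, limma FDR = 0.999) in nonobese-labelled mice. Six3 and Six6 did not keep a constant proportion, as their signal ratio ran from 14.5 in AAV-GFP replicate 1 to 1.03 in replicate 3 labelled obese. Six6 shares 192 exon bases with 4930447C04Rik on the opposite strand, whose signal was 16.5 to 33.9.

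Tbx3 (ENSMUSG00000018604, chromosome 5 from 119670669 to 119684724, plus strand, 9 exon blocks), a T-box factor of arcuate neurons, was among the steadiest members. AAV-GFP mice had a signal of 28.7, 43.9 and 36.9, and nonobese-labelled mice 35.3, 32.7 and 36.5. Mice labelled obese had 29.5, 61.5 and 19.1, which include both the highest and the lowest value of all 9 libraries. The 3 group means were close together, at 36.5 ± 7.60, 34.9 ± 1.92 and 36.7 ± 22.1 (SD, n = 3 each). Set against AAV-GFP, its log2 FC came to −0.13 (standard error 0.38, limma FDR = 0.938) in obese-labelled mice and −0.04 (standard error 0.38, limma FDR = 0.999) in nonobese-labelled mice. Tbx3 shares 115 exon bases with the antisense gene Tbx3os1, which had no row.

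Isl1 (ENSMUSG00000042258, chromosome 13 from 116298281 to 116309689, minus strand, 7 exon blocks), a LIM homeodomain factor, had a higher mean in both AAV-Cre subsets than with AAV-GFP, but not beyond the spread between mice. Its signal was 30.9, 37.7 and 51.1 with AAV-GFP, 57.2, 43.2 and 51.2 in nonobese-labelled mice, and 36.9, 64.2 and 89.4 in obese-labelled mice. AAV-GFP replicate 3 exceeded AAV-Cre mice of both labels, so the groups overlapped. The means were 39.9 ± 10.3, 50.6 ± 7.03 and 63.5 ± 26.3 (SD, n = 3 each). The log2 FC was 0.60 (standard error 0.32, 95% CI −0.06 to 1.26, limma FDR = 0.553) in obese-labelled mice and 0.35 (standard error 0.32, limma FDR = 0.999) in nonobese-labelled mice. Over all 6 AAV-Cre mice it was 0.48 (standard error 0.28, limma FDR = 0.999, exact permutation p = 0.155, 2-sided).

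Otp (ENSMUSG00000021685, chromosome 13 from 94875602 to 94885130, plus strand, 4 exon blocks), a homeobox factor of neuroendocrine neurons, had its lowest values in the libraries that stood apart. The signal was 24.9, 15.3 and 11.5 in AAV-GFP mice and 9.27, 14.9 and 20.9 in nonobese-labelled mice. In obese-labelled mice it was 5.85, 13.8 and 2.09, the last of which rests on 9 reads. Replicates 1 and 3 labelled obese were thus lower than all other libraries, while replicate 2 of that group lay within the range of both other groups. The log2 FC in obese-labelled mice against AAV-GFP was −1.36 (standard error 0.62, 95% CI −2.64 to −0.08). Its unadjusted p was 0.0388 in limma, its FDR 0.463, and the exact permutation p was 0.200 (2-sided, 0.1 being the smallest that 3 mice against 3 allow). Without replicates 1 and 3 labelled obese the log2 FC was −0.23 (standard error 0.68). In nonobese-labelled mice it was −0.19 (standard error 0.62, limma FDR = 0.999).

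Hmx3 (ENSMUSG00000040148, chromosome 7 from 131542867 to 131544925, plus strand, 2 exon blocks) was measured on few reads, 291 over the 9 libraries together. Its signal was 6.23, 4.79 and 1.75 in AAV-GFP mice, 12.8, 0.262 and 2.99 in nonobese-labelled mice, and 14.2, 5.45 and 13.2 in obese-labelled mice. The value of 0.262 is a single read and lies under the floor. Replicates 1 and 3 labelled obese and replicate 1 labelled nonobese lay together near the top, and the remaining mice at 6.23 or less. Against AAV-GFP its log2 FC was 1.20 (standard error 0.84, 95% CI −0.53 to 2.93, limma FDR = 0.675) in obese-labelled mice and −0.24 (standard error 0.84, limma FDR = 0.999) in nonobese-labelled mice. The first value was 0.41 (standard error 1.17) without replicates 1 and 3 labelled obese. Hmx2 lies 3847 bases from Hmx3 on the same strand and had no row. Both overlap Fgfr2 on the opposite strand, with 0 shared exon bases.

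Dlx1 (ENSMUSG00000041911, chromosome 2 from 71528113 to 71533981, plus strand, 2 exon blocks) was the only member whose groups separated in any comparison. Its signal was 29.7, 17.6 and 27.6 with AAV-GFP, 13.8, 12.8 and 17.5 in nonobese-labelled mice, and 25.6, 22.0 and 51.3 in obese-labelled mice. All 3 nonobese-labelled mice were lower than all mice of both other groups, although the gap to AAV-GFP replicate 2 was small. Mice labelled nonobese differed from obese-labelled mice by a log2 FC of −1.03 (standard error 0.43, 95% CI −1.91 to −0.14), with an unadjusted limma p of 0.0247 and an FDR of 0.350. Against AAV-GFP, Dlx1 had a log2 FC of −0.70 in nonobese-labelled mice (standard error 0.43, limma FDR = 0.999) and 0.33 in obese-labelled mice (standard error 0.43, limma FDR = 0.854). The exact permutation p was 0.1 for both comparisons with separate groups. Without replicates 1 and 3 labelled obese, the difference between the AAV-Cre subsets was −0.56 (standard error 0.58). Dlx2, 9426 bases away, had a signal of 1.57 to 17.0, and the Dlx1 to Dlx2 ratio ran from 0.898 in replicate 1 to 8.17 in replicate 2 labelled nonobese. Dlx1 shares 335 exon bases with the antisense gene Dlx1as, which had no row.

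The spread between mice of a group was compared with that of other genes. The biological coefficient of variation (BCV, the spread beyond counting error) was estimated by edgeR on the recovered reads. Each estimate is drawn toward the trend for genes of similar level, so closeness to the trend is partly built in. In 7 of the 8 members the BCV was 0.917 times (Dlx1) to 1.07 times (Hmx3) the trend. The ratio of Hmx3 exceeded the ratios of 78.8% of all entries. Six3 was different. Its BCV was 54.7%, against a trend of 30.3%, a ratio of 1.80 that exceeded the ratios of 99.4% of all entries. At the mean read number of Six3, counting error alone gives a coefficient of variation of 6.71%. The SD of Six3 within groups on the log2 scale was 1.24, higher than in 91.2% of entries, against 0.44 for Isl1 and 0.45 for Dlx1. This SD is not drawn toward the trend and includes counting error. It was also high for Hmx3 (1.15, higher than in 88.3% of entries) and Six6 (0.99, higher than in 81.6%). Over the 8 members the median BCV was 49.9%, and over all entries tested it was 41.7%.

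**Figure D2:**
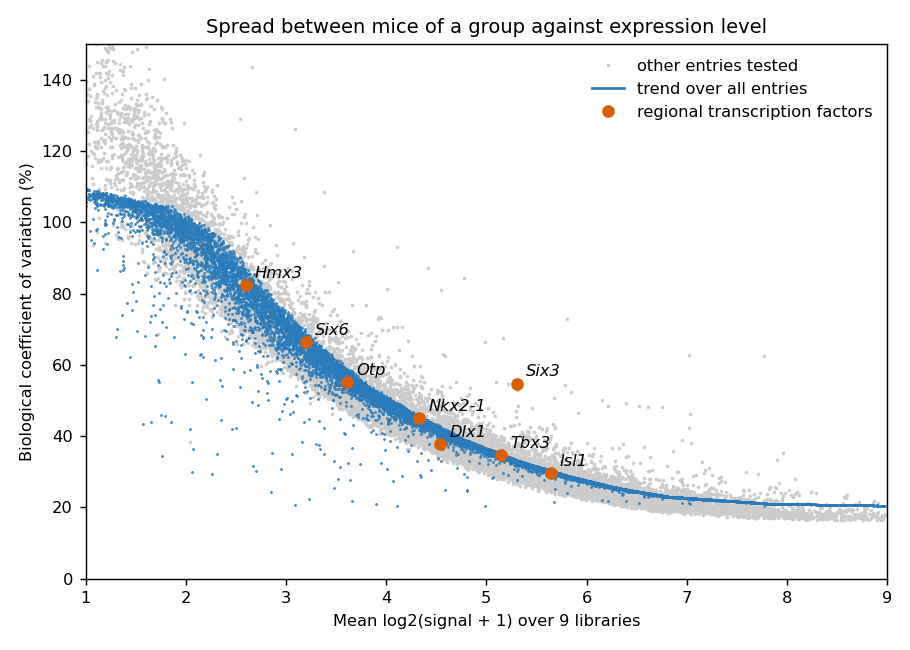
Biological coefficient of variation (%) of each entry tested (grey points) against its mean log2(signal + 1) over 9 libraries, with edgeR's trend value for each entry in blue and the 8 regional transcription factors in orange. Six3 (54.7%) lies far above the trend at its level (30.3%). The other 7 lie close to the trend, toward which each estimate is drawn.

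Relations between members were examined for all 28 pairs over the 9 libraries. Pearson's r of log2(signal + 1) was positive in 14 pairs and negative in 14, with a median of 0.08. After Benjamini-Hochberg adjustment over the 28 pairs, 0 had an exact permutation p under 0.05, and 3 did so before adjustment. Nkx2-1 and Six3 varied together most closely, with r = 0.858 (exact permutation p = 0.00307, adjusted p = 0.0860). Their Spearman's rho was 0.717 (exact permutation p = 0.0369, adjusted p = 0.606). The relation remained positive without the libraries farthest from the median for Nkx2-1, replicates 3 of both AAV-Cre subsets (r = 0.670), and for deviations from the group means (r = 0.849).

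Otp and Six3 had r = 0.771 (exact permutation p = 0.0144, adjusted p = 0.202) and rho = 0.700 (exact permutation p = 0.0433, adjusted p = 0.606). This relation rested on replicates 1 and 3 labelled obese, without which r was 0.258. Nkx2-1 and Otp had r = 0.662 (exact permutation p = 0.0466, adjusted p = 0.283) and rho = 0.467 (exact permutation p = 0.213, adjusted p = 0.661). Here r was 0.772 without the libraries farthest from the median and −0.118 without replicates 1 and 3 labelled obese. Tbx3 and Isl1, both known from arcuate neurons, had r = −0.140 (exact permutation p = 0.732, adjusted p = 0.759) and rho = 0.167 (exact permutation p = 0.678, adjusted p = 0.759). The sign of this r turned without replicates 1 and 3 labelled obese (r = 0.618). It was 0.422 without the libraries farthest from the median for Tbx3, replicates 2 and 3 labelled obese, and −0.084 for deviations from the group means. Dlx1 had a negative r with Nkx2-1 (−0.523), Tbx3 (−0.561), Otp (−0.579) and Six3 (−0.631), none with an unadjusted exact permutation p under 0.05. These values also rested on replicates 1 and 3 labelled obese, without which r was 0.103, 0.013, 0.369 and −0.097 in the same order.

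**Figure D3:**
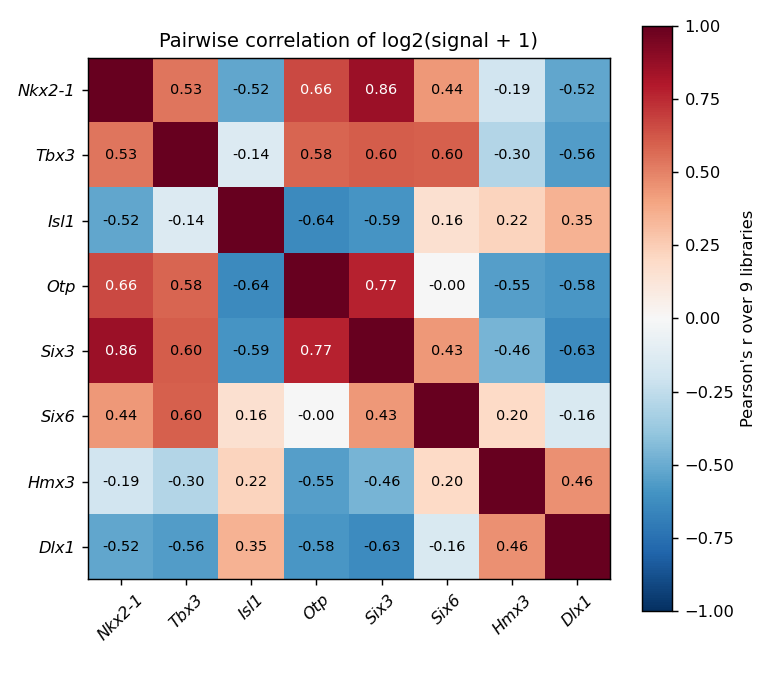
Pearson's r of log2(signal + 1) over 9 libraries for each pair of the 8 regional transcription factors, from −1 (blue) to 1 (red). The highest value is 0.86 for Nkx2-1 with Six3, and Otp has 0.77 with Six3 and 0.66 with Nkx2-1.

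For each member, the entries with the most similar pattern were identified by Pearson's r over the 9 libraries among 13506 entries. These are descriptions, because the highest of so many values is large by selection. Six3 was most like Cacna1e, which encodes a voltage-gated calcium channel subunit (r = 0.982), Gria4, a glutamate receptor subunit (r = 0.977), and Gpr165 (r = 0.962). Nkx2-1 was most like Cdc42bpa (0.938), Rab2a (0.933) and Garem1 (0.932). Otp was most like Arhgap6 (0.961), Gm20449 (0.960) and Ly6h (0.959). For Tbx3 these entries were Mdm2 (0.971), Hnrnpc (0.961) and Wdtc1 (0.952), and for Isl1 they were Zkscan5 (0.935), Samm50 (0.903) and Srbd1 (0.903). For Six6 they were Rell1 (0.959), Adgra1 (0.923) and Lrrc58 (0.923), for Hmx3 Xxylt1 (0.966), Rbm45 (0.955) and Efcab12 (0.949), and for Dlx1 Ctsa (0.951), Ppp2r5b (0.944) and Ggps1 (0.934). The lists of 3 held no other member.

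Genes of the ventromedial nucleus were set beside Six3 and Nkx2-1 for each mouse. Nr5a1, which encodes the steroidogenic factor that defines ventromedial neurons, had a signal of 35.2 and 33.9 in AAV-GFP replicates 1 and 2, 15.2 and 16.2 in replicates 1 and 2 labelled nonobese, and 46.1 in replicate 2 labelled obese. It had 0 reads in the other 4 libraries, of which at least 1 was in each group. Six3 was between 39.4 and 101 in the 5 libraries with Nr5a1 reads and between 7.43 and 24.1 in the 4 without. Nkx2-1 was between 22.5 and 35.7 in the former and between 7.43 and 18.1 in the latter. These libraries were set apart by a measured value, so the difference was not tested.

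Fezf1, another ventromedial transcription factor, was at 48.4 and 39.3 in AAV-GFP replicates 1 and 2, 12.1 and 52.6 in replicates 1 and 2 labelled nonobese, and 49.7 in replicate 2 labelled obese. In the 4 libraries without Nr5a1 reads it was between 0 and 3.63. Nptx2 was split in the same way (30.1 to 66.6 against 4.27 to 8.55), but Sox14, Adcyap1 and Bdnf were not. Sox14 was highest in replicate 3 labelled obese (10.9) and lowest in replicate 2 labelled obese (0.908). In AAV-GFP replicate 3, Adcyap1 (50.1) and Bdnf (14.8) lay between their values in AAV-GFP replicates 1 and 2. The summed signal of the 6 ventromedial genes ran from 78.5 to 203 with AAV-GFP, from 47.6 to 250 in nonobese-labelled mice and from 35.1 to 182 in obese-labelled mice. Of these 6 genes, 0 were called in obese-labelled mice against AAV-GFP, and the median log2 FC was −1.02, beside −0.04 for all entries tested. Within the obese-labelled group the summed signal was 35.1 and 37.9 in replicates 1 and 3, but 182 in replicate 2. A median without replicates 1 and 3 is not given here. The split was not particular to ventromedial genes. Pomc, of the arcuate nucleus, was at 64.7 to 100 in the 5 libraries with Nr5a1 reads and at 4.65 to 36.0 without. The mean log2(signal + 1) of 8 arcuate genes was 4.96 to 5.47 and 3.49 to 4.73. Not every arcuate gene followed, as Cartpt was highest in replicate 3 labelled obese (186). Whether the share of ventromedial or arcuate tissue had a part in the levels of Six3 and Nkx2-1 was not tested.

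**Figure D4:**
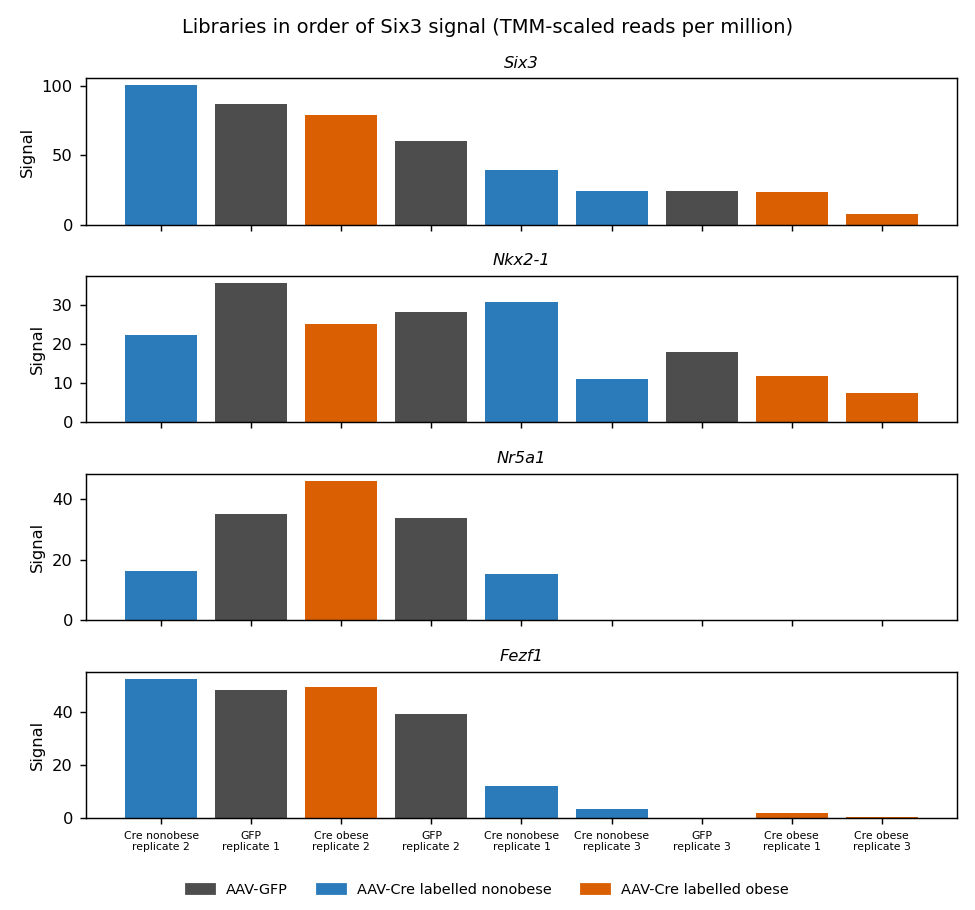
Signal (TMM-scaled reads, as in CPM) of Six3, Nkx2-1, Nr5a1 and Fezf1 in each of 9 libraries, ordered from the highest Six3 signal on the left to the lowest on the right and colored by group. The 5 libraries highest in Six3 (39.4 to 101) are the 5 with Nr5a1 reads, and every group contributes to both ends of the order.

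Across the groups as a whole, 0 of the 8 members were called (limma, FDR under 0.1) in obese-labelled AAV-Cre mice against AAV-GFP, where 0.555% of all entries tested were called. At an unadjusted limma p under 0.05 there was 1 member, Otp, beside 9.88% of all entries. None of the 8 had groups that did not overlap, a condition met by 14.5% of entries. Log2 FCs were positive for 4 members and negative for 4, from −1.36 for Otp to 1.20 for Hmx3, with a median of 0.10. The median for all entries was −0.04. When replicates 1 and 3 labelled obese were left out, Tbx3 had a log2 FC of 0.76 (standard error 0.41), Six6 of 1.93 (standard error 0.89), Isl1 of 0.70 (standard error 0.39) and Dlx1 of −0.14 (standard error 0.58).

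In nonobese-labelled mice against AAV-GFP, 0 of 8 members were called, beside 0.0148% of entries, and 0 had an unadjusted limma p under 0.05, beside 2.27%. Dlx1 was the only 1 of the 8 with groups that did not overlap, beside 9.72% of entries. Log2 FCs lay between −0.70 for Dlx1 and 0.35 for Isl1, with 7 of 8 negative and a median of −0.21. When the 6 AAV-Cre mice were compared together with AAV-GFP, 0 of 8 members were called, beside 0.0222% of entries, 0 had an unadjusted limma p under 0.05, beside 3.14%, and 0 had separate groups, beside 2.01%. Otp had the lowest log2 FC here (−0.77, standard error 0.58) and Hmx3 and Isl1 the highest (0.48 for both, with standard errors of 0.77 and 0.28). These were, with replicates 1 and 3 labelled obese left out, −0.20 for Otp (standard error 0.47), −0.081 for Hmx3 (standard error 0.79) and 0.44 for Isl1 (standard error 0.27). The comparisons with AAV-GFP share their control mice and are not independent of each other.

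Between the AAV-Cre subsets, nonobese against obese, 0 of 8 members were called, beside 0.948% of entries. At an unadjusted limma p under 0.05 there was 1 member, Dlx1, beside 11.4% of entries, and Dlx1 was also the only 1 with separate groups, beside 13.3%. Otp had a log2 FC of 1.17 (standard error 0.62), Six3 of 0.87 (standard error 0.58) and Hmx3 of −1.44 (standard error 0.84). In the fit without replicates 1 and 3 labelled obese, Otp was at 0.044 (standard error 0.68), Six3 at −0.78 (standard error 0.58) and Hmx3 at −0.65 (standard error 1.17). Six3 passed the threshold here too when replicate 2 labelled obese was left out (log2 FC 1.70, standard error 0.52, limma FDR = 0.0582). The 95% interval ran from −0.91 to 0.42 for Isl1, the narrowest of the 8, and from −3.17 to 0.29 for Hmx3, the widest.

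**Figure D5:**
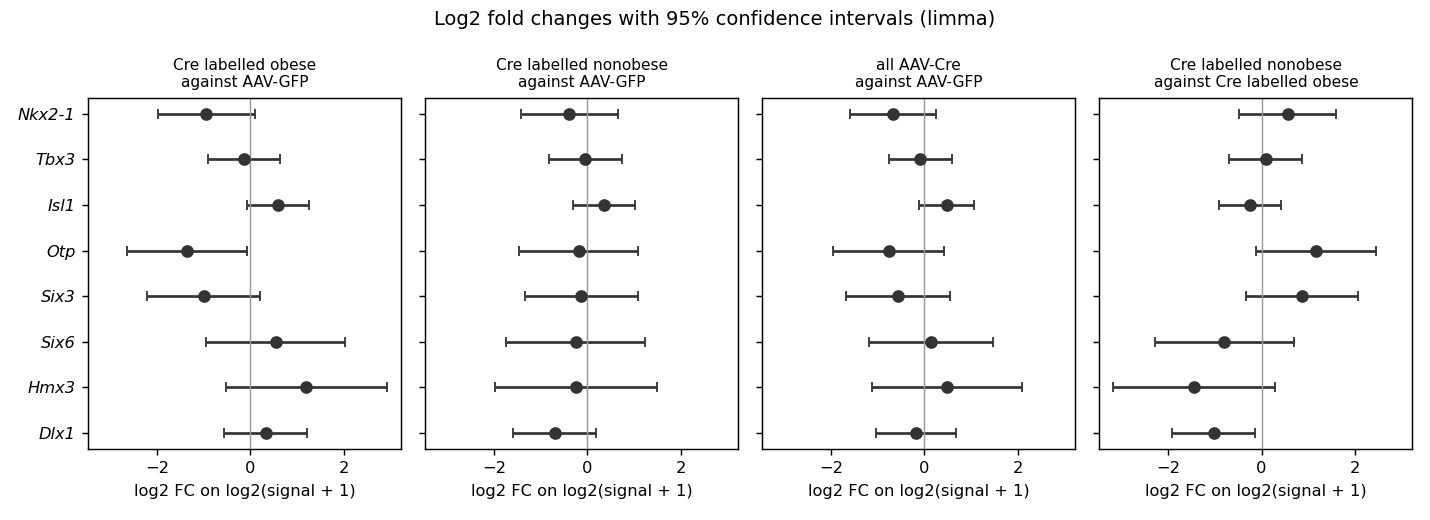
Log2 fold changes (points) with 95% confidence intervals (bars) of the 8 regional transcription factors on the log2(signal + 1) scale, from limma, in each of 4 comparisons. Intervals that leave out 0 are those of Otp in obese-labelled mice against AAV-GFP (−2.64 to −0.08) and of Dlx1 in nonobese-labelled mice against obese-labelled mice (−1.91 to −0.14).

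Other transcription factors of the hypothalamus were tested in the same fits. Of 33 listed, 24 had a row and were tested, and 0 were called in any of the 4 comparisons. The most abundant were Zfhx3 (signal 119 to 244 over the libraries), Arnt2 (137 to 176) and Zfhx4 (38.6 to 141). In obese-labelled mice against AAV-GFP, 13 of the 24 had a positive log2 FC, with a median of 0.05. Of 14 paralogs of the members, 6 had a row and 0 were called in any comparison. In obese-labelled mice, Nkx2-4 was the only 1 of these whose groups did not overlap those of AAV-GFP (log2 FC 0.93, standard error 0.53, limma FDR = 0.580), that is, 1 of 6, beside 14.5% of all entries tested.

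As a check on where the tissue came from, 16 transcription factors of other brain regions were looked up. Of these, 11 had no row, including Emx1 of the forebrain, En1 and En2 of the midbrain, and Hoxa5 of the hindbrain. The others included Tcf7l2 (16.0 to 43.2), Bcl11b (3.48 to 42.1), Lef1 (9.43 to 41.8) and Tbr1 (0.191 to 10.7), and 0 of 5 were called in any comparison.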

How the data were processed

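RNA of laser-captured mediobasal hypothalamus was sequenced as 1 library for each of 9 mice. Per the labels and the methods of the study, mapping by the authors used TopHat2 2.0.11 and the GRCm38 assembly, followed by HTSeq, whose role is not stated, edgeR and limma. The strand setting of the counting and any filter on low genes are not given in the sources used here. Each deposited value is a signal, that is, the reads of a gene over a library size that the authors had scaled with TMM, multiplied as for CPM. All were whole multiples of the signal of 1 read (relative tolerance 0.001), so reads could be recovered, and the lowest total of an entry was 50 reads. The design had assumed CPM, and the same test suited the signal.

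Symbols were matched for 13446 of 13586 identifiers, with positions from GENCODE M21. The main test was limma 3.58.1 in R 4.3.3 on log2(signal + 1), with a variance trend and all 9 libraries (3 groups, or AAV-Cre as a single group), over 13506 entries that reached a signal of 1 in 3 or more libraries. FDR is the Benjamini-Hochberg adjusted p, and a call is an FDR under 0.1. P-values measure the spread between libraries, each from a different mouse. Per the methods of the study, tissue was captured from single brain slices, with region-matched AAV-GFP controls. Differences between mice and between captured sections therefore cannot be told apart. Single genes and correlations were tested by exact permutation (SciPy 1.17.1), 2-sided. The BCV came from edgeR 4.0.16. The settings varied were the pseudocount (0.1 and 5), the filter (none, or a signal of 5), centring, no variance trend, a replicate block, an FDR threshold of 0.05, edgeR 4.0.16 and DESeq2 1.42.0 on recovered reads, the average of both AAV-Cre subsets, leaving out each mouse and, added after the data were seen, leaving out replicates 1 and 3 labelled obese. The fits were checked on 5 simulated data sets with 200 genes changed in the obese-labelled group. Against AAV-GFP, limma recovered 61% of genes changed by a log2 FC of 2 in either direction and 78% at 3. Of its calls, 11.3% were false, beside 23.7% with edgeR's likelihood ratio test. Named genes are the members, their 3 most similar entries, neighboring or overlapping genes and, of each gene list used, called genes or up to 3 of the most abundant, and others were named after their values were seen. Some genes of these lists are not reported here. The members, lists and tests were chosen with earlier results of these data known.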

Additional observations from a re-analysis of the deposited data

How the results depend on the processing

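The count of 0 members called in each of the 4 comparisons stayed at 0 under every alternative except leaving out replicate 2 labelled obese, and over the fits that left out a mouse it ran from 0 to 1 in mice labelled obese against AAV-GFP and from 0 to 1 between the AAV-Cre subsets, with Six3 as the member called. The count of 0 pairs of members with an adjusted p under 0.05 did not change with either pseudocount or with centring. The number of all entries called moved more. In mice labelled obese against AAV-GFP it was 75, and it was 34 and 143 with pseudocounts of 0.1 and 5, 5 without a variance trend, 260 and 275 with edgeR's likelihood ratio test and DESeq2, 36 at an FDR threshold of 0.05, 41 without replicates 1 and 3 labelled obese (added after the data were seen), and 9 (without AAV-GFP replicate 1) to 720 (without replicate 2 labelled obese) when a mouse was left out. Between the AAV-Cre subsets it was 128, and in the same order 70, 214, 15, 398, 389, 68, 48, and 2 (without replicate 1 labelled obese) to 908 (without replicate 2 labelled obese). In mice labelled nonobese against AAV-GFP it was 2, and 1 with a pseudocount of 0.1 and 6 with the likelihood ratio test. For all AAV-Cre mice it was 3, and 6 with the average of both subsets, 7 with the likelihood ratio test and 9 with DESeq2.

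Log2 FCs of members that were not called changed sign under some alternatives. In mice labelled obese against AAV-GFP, Tbx3 was at 0.0074 with both edgeR tests and 0.026 with DESeq2. Hmx3 in mice labelled nonobese was at 0.0034 with a pseudocount of 5, 0.34 with both edgeR tests and 0.33 with DESeq2. Between the AAV-Cre subsets Tbx3 was at −0.073 with both edgeR tests and −0.091 with DESeq2. Without replicates 1 and 3 labelled obese, which leaves a single mouse in that group, assumed to vary like the other groups, Tbx3, Six3 and Dlx1 were at 0.76, 0.65 and −0.14 in mice labelled obese, Tbx3, Six3 and Hmx3 at 0.16, 0.067 and −0.081 in all AAV-Cre mice, and Nkx2-1, Tbx3 and Six3 at −0.33, −0.80 and −0.78 between the subsets. The cause of these changes was not tested.

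Signs also turned when a mouse was left out. In mice labelled obese the log2 FC of Tbx3 ran from −0.58 to 0.24, of Six6 from −0.15 to 1.10 and of Dlx1 from −0.034 to 0.56. In mice labelled nonobese the ranges were −0.70 to 0.0031 for Nkx2-1, −0.20 to 0.10 for Tbx3, −0.44 to 0.10 for Otp, −0.69 to 0.32 for Six3, −0.66 to 0.30 for Six6 and −1.12 to 0.61 for Hmx3. For all AAV-Cre mice they were −0.26 to 0.069 for Tbx3 and −0.26 to 0.70 for Six6, and between the subsets −0.28 to 0.54 for Tbx3 and −0.58 to 0.043 for Isl1.

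Replicate numbers come from the titles, and same-numbered mice are different animals. Their deviations from the group means correlated at −0.02 to 0.09, with 0 of 9 pairs over 0.1, so the numbers were not taken to pair the mice. With the replicate number as a block, 0 members were called in each comparison, and 200 entries were called in mice labelled obese, 3 in mice labelled nonobese, 3 in all AAV-Cre mice and 271 between the subsets.

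Precision was limited by 3 mice in a group and, for Hmx3, Six6 and Otp, by read number (291, 432 and 543 reads over all libraries).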

Other observations

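Transcription factors of the mammillary region, the caudal part of the hypothalamus, did not share a pattern over the libraries. Of 8 listed genes, 7 had a row, 6 were tested and 0 were called in any comparison. Lmx1b had a signal of 32.2 in AAV-GFP replicate 3 and 27.3 in replicate 3 labelled nonobese, against 0 to 3.32 in the other 7 libraries. Sim1, which is also a factor of the paraventricular nucleus, was at 22.3 and 11.1 in the same mice, against 0 to 7.67. Both mice had 0 reads of Nr5a1, with Six3 at 23.9 and 24.1 and Nkx2-1 at 18.1 and 11.1. Replicates 1 and 3 labelled obese also had 0 reads of Nr5a1, but had 0 reads of Lmx1b. Lhx1, in contrast, was highest in AAV-GFP replicate 1 (19.9) and replicate 2 labelled nonobese (7.07), the 2 libraries highest in Six3, and Lhx5 was highest in replicate 3 labelled obese (32.1). These genes were singled out after their values were seen, and no difference between these libraries was tested.

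Slc17a6, the vesicular glutamate transporter of hypothalamic glutamate neurons, was the only gene of its list with a row. Its signal was 76.0 and 84.3 in replicates 1 and 3 labelled obese and 146 to 285 in the other 7 libraries. It was called between the AAV-Cre subsets, nonobese against obese (log2 FC 1.06, standard error 0.24, limma FDR = 0.0328), where 0.948% of all entries were called. A fit of Slc17a6 without replicates 1 and 3 labelled obese is not given here. In obese-labelled mice against AAV-GFP, Slc17a6 was not called (log2 FC −0.92, standard error 0.24, limma FDR = 0.105). Between the subsets, 3 GABA neuron genes had log2 FCs of the other sign (−0.51 to −0.41), and 0 were called.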
